A study of Mus musculus with 12 samples.

Results

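Rab GTPases are small membrane-bound switches that mark the compartments of the endocytic and secretory routes. They were taken as every count feature whose name is a mouse symbol made of Rab, a number and at most 1 letter, alone or in a name that joins several overlapping genes. This gave 59 of the 19549 features. For 3 of them the counts are shared with other genes, since the features read Mpv17l2_Rab3a, Pp2d1_Rab5a and Mettl3_Rab2b_Tox4. The members were placed by the route that each is best known for. This put 8 at the early endosome, 12 at the late endosome and lysosome and 9 at the recycling endosome. A further 16 belonged to the ER, the Golgi and constitutive secretion, 9 to regulated secretion and 5 to none of these routes.

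The libraries came from bone marrow-derived macrophages (BMDMs) of female FVB mice that were polarized for 4 h with 200 units/mL of interferon gamma (IFNG) or 40 ng/mL of interleukin 4 (IL4). Total mRNA was taken from about 10% of the cells, and messages bound by more than 3 ribosomes were pooled from a sucrose gradient of the rest. The 4 groups, each with 3 libraries, were IFNG polysome-associated, IL4 polysome-associated, IFNG total and IL4 total mRNA. The comparisons ask which messages differ between the polarizations, in the transcriptome and among the messages being translated. No unpolarized cells were analysed here, so a higher value with IFNG and a lower value with IL4 cannot be told apart. The labels do not state if each replicate is a different animal or culture, and p-values then cover only how far these libraries differ, which may be technical.

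A Rab GTPase cycles between a GDP-bound form, held in the cytosol by GDP dissociation inhibitors, and a GTP-bound form on a membrane, where it recruits effectors that tether, move and fuse vesicles. Exchange factors load GTP and GTPase-activating proteins end the active state, and a prenyl group attached by the escort proteins and the geranylgeranyl transferase anchors the protein. In macrophages these proteins are best known for carrying phagosomes through early and late endosomal stages to the lysosome, and for the delivery of receptors and cytokines to the surface.

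A RefSeq promoter window on GRCm38.p6, from 250 bases before to 50 bases after a transcription start, was found for 48 of the 59 members, in 60 windows. Rab7b had no entry. The windows were searched on both strands for motifs of cytokine signalling, of which 2 are given here, the STAT6 site of the IL4 pathway (TTCNNNNGAA) and an IRF element (GAAANNGAAA). The STAT6 letters were present for 3 of the 48 Rab genes (6.25%), Rab11b, Rab15 and Rab5b, beside 8.01% of the 27025 genes with a window. The IRF letters were present for Rab19 alone among the Rab genes (2.08%), beside 3.99% of all genes. The windows of Rab43, Rab20, Rab32, Rab5c, Rab10 and Rab23, whose messages differed between the polarizations in the comparisons that follow, held neither of these 2 motifs, which says only that these letters were not in these windows. Rab windows were rich in the CG dinucleotide, with a median of 19.5 per window against 7 over all windows, and with a median G and C content of 61.2% against 52.7%. All windows here include those of genes that were not tested, and no set of expressed genes was compared. The 250 bases upstream of 4 genes with higher messages under IFNG are shown 5′ to 3′ on the strand of the gene, because they show both a CG-dense start (Rab10) and a CG-poor one (Rab32). Capitals mark each CG. Rab43 lies at chr6:87812165-87812414 with 15 CG, Rab20 at chr8:11478641-11478890 with 12 CG, Rab32 at chr10:10558208-10558457 with 5 CG and Rab10 at chr12:3309970-3310219 with 34 CG, all on the minus strand. Rab43 has other annotated starts too, and the stretch shown lies before the outermost. Over all windows of the called Rab genes, of 300 bases each, the CG count was 3 to 45.
Rab43: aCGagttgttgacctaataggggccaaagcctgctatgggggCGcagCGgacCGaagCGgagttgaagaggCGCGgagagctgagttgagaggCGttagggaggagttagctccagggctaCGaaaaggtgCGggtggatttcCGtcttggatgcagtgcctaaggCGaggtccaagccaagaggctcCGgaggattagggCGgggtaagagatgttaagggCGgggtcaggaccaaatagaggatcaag
Rab20: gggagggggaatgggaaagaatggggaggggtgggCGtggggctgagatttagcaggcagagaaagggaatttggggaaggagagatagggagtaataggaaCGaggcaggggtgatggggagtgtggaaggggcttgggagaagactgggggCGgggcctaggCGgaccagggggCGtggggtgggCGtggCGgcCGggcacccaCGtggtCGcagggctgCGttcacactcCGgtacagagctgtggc
Rab32: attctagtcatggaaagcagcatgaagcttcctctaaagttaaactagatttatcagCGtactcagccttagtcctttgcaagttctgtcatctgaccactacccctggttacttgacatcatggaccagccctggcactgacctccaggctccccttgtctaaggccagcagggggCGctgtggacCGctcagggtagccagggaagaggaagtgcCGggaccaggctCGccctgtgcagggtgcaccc
Rab10: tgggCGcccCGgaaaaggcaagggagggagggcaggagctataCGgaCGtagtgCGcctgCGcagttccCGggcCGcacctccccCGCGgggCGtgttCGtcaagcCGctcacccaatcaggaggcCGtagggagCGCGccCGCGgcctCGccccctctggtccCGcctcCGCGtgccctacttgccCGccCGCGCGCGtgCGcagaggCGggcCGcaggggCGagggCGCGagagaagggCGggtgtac

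Libraries held 2563955 to 22014162 counts, and polysome-associated libraries were the shallower ones. Rab GTPases took 0.287 to 0.473% of the counts of a library. A single gene, Lars2, which encodes a mitochondrial leucyl-tRNA synthetase, took 1.78 to 29.3% of the counts with IFNG and 5.15 to 18.1% with IL4 in polysome-associated libraries, against 0.341 to 2.00% with IFNG and 0.903 to 1.47% with IL4 in total mRNA. Whether the reads counted for Lars2 come from its message was not tested. The 11 macrophage markers were all measured. Their summed level was 11067 to 16990 CPM (counts scaled to a fixed library total) with IFNG and 8661 to 9368 CPM with IL4 on polysomes, and 13402 to 25753 CPM with IFNG and 8902 to 14856 CPM with IL4 in total mRNA. Markers of T and NK cells, B cells, mast cells and basophils summed to at most 6.21 CPM in any library. Markers of dendritic cells summed to 18.1 to 45.4 CPM with IFNG and 0.817 to 2.27 CPM with IL4 on polysomes, and to 18.1 to 32.5 CPM with IFNG and 8.63 to 19.4 CPM with IL4 in total mRNA, with Flt3 at 0 in all libraries. Stromal markers reached at most 42.0 CPM. Epithelial markers summed to 2.10 to 3.35 CPM with IFNG and 44.1 to 126 CPM with IL4 on polysomes. In total mRNA they summed to 0.127 to 1.63 CPM with IFNG and 11.5 to 26.0 CPM with IL4. Krt18 was at 0 in all libraries, Epcam in the IL4 libraries of both fractions, and Krt8 in all groups but IL4 polysome. The IL4 sum in total mRNA therefore came from a single listed gene. Megakaryocyte and erythroid markers, of which Pf4 alone passed the filter on low counts, summed to 35.9 to 117 CPM with IFNG and 155 to 328 CPM with IL4 on polysomes, and to 337 to 767 CPM with IFNG and 527 to 1104 CPM with IL4 in total mRNA. The part of these marker differences in the Rab results was not tested. Neutrophil markers reached 33.5 CPM, with Retnlg at 0 in IFNG total mRNA and Ly6g and Elane at 0 in the other groups.

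Of the 59 members, 44 passed the filter on low counts and were tested, and 15 did not. Levels are given as CPM on libraries scaled by the trimmed mean of M-values (TMM), which are not divided by transcript length and so are compared between groups and not between genes. Over all libraries 14 members averaged at least 100 CPM, 15 averaged 10 to under 100 CPM and 15 averaged less than 10 CPM. No read of Rab27b, Rab3c or Rab9b was counted in any library. The untested member with the most counts was Rab33a, a Golgi and secretory vesicle Rab. It had 0 counts with IFNG and 0 with IL4 on polysomes, while its total libraries held 63 counts with IFNG and 21 with IL4. The other untested members were Rab17, Rab25, Rab26, Rab30, Rab36, Rab38, Rab39b, Rab3b, Rab40b, Rab44 and Rab6b. Rab38, which acts with Rab32 on lysosome-related organelles, had 7 counts with IFNG and 18 with IL4 in the total libraries and 0 on polysomes.

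IFNG against IL4 left most Rab messages without a call and called 7, all higher with IFNG. These calls come from a model without a replicate block. With the replicate number as a block, Rab1b was called lower on polysomes. In total mRNA 5 of the 44 tested members were called higher and 0 lower, where 7.08% of all 10421 tested features were called higher and 3.93% lower by edgeR's quasi-likelihood test with Benjamini-Hochberg adjustment over all of them. On library totals without TMM all features split into 477 higher and 506 lower, against 738 higher and 410 lower with TMM. In polysome-associated mRNA again 5 were called higher and 0 lower, where 7.54% of all features were called higher and 6.58% lower. Rab43, Rab20 and Rab7b were called in both fractions, Rab32 and Rab5c in total mRNA, and Rab10 and Rab23 on polysomes. The median log2 fold change of the tested members was 0.15 in total mRNA, beside 0.04 over all features, and 0.23 on polysomes, beside -0.06 over all features. The sign of the Rab median in total mRNA was not kept: it was -0.17 on library totals without TMM, beside -0.30 over all features, and -0.04 without IFNG total replicate 3, beside -0.07 over all features. In 15 members the IFNG and IL4 libraries did not overlap in total mRNA, and in 14 on polysomes, where the share over all features was 25.7% in total mRNA and 31.2% on polysomes. The 5 calls made up 11.4% of the tested members in either fraction, beside 11% of all features in total mRNA and 14.1% on polysomes. In these bulk libraries fewer cells of a type and less RNA per cell cannot be told apart.

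**Figure D1:**
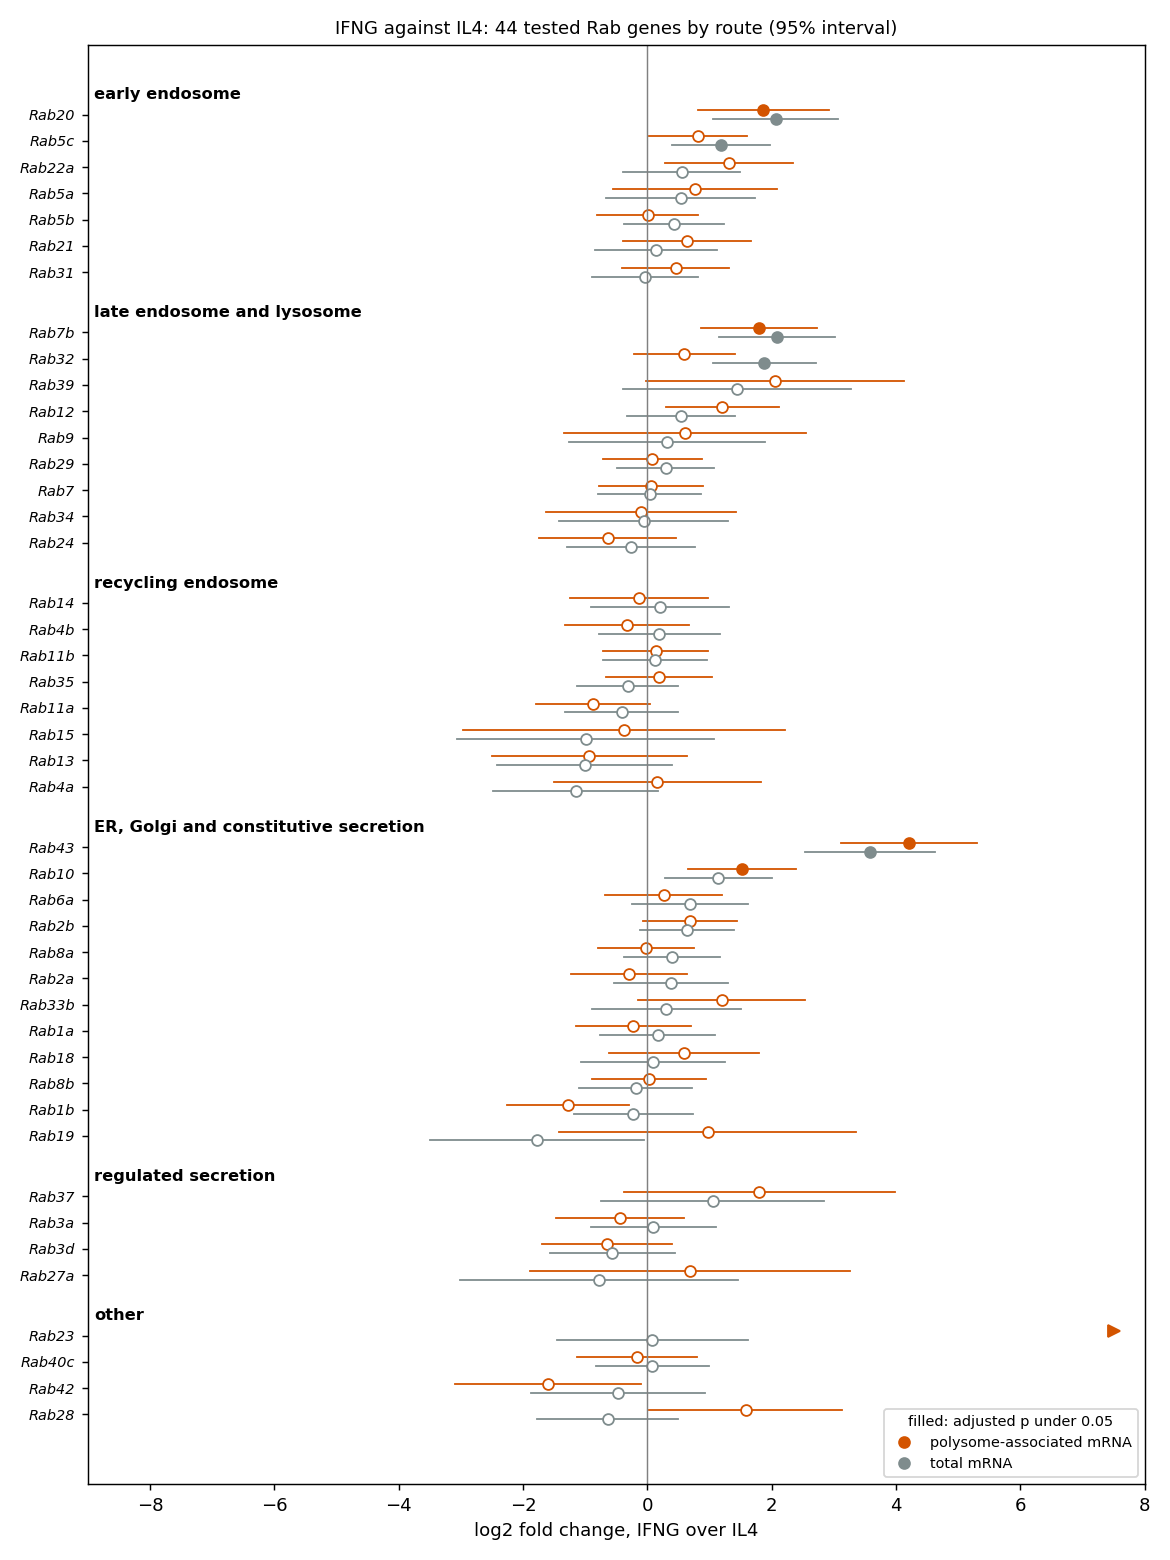
Log2 fold change of IFNG over IL4 (horizontal axis) for the 44 tested Rab genes by route, in polysome-associated (orange) and total mRNA (grey), with 95% intervals and filled points where the edgeR adjusted p was under 0.05. The 7 called genes lie right of 0, Rab43 farthest among those with an interval, and the arrow marks Rab23, whose IL4 polysome libraries had 0 counts and whose fitted value is not drawn to scale.

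At the early endosome, Rab20 and Rab5c were called in total mRNA and Rab20 on polysomes. Rab20 serves the maturation of endosomes and phagosomes. In total mRNA it stood at 119, 106 and 46.9 CPM with IFNG, against 35.7, 18.3 and 10.9 CPM with IL4. On polysomes it stood at 39.3, 21.9 and 20.7 CPM with IFNG, against 9.67, 5.31 and 7.19 CPM with IL4. All IFNG libraries lay above all IL4 libraries in both fractions. The log2 fold change of Rab20 was 2.06 in total mRNA (SE 0.49, 95% interval 1.06 to 3.07, edgeR adjusted p = 0.00565). On polysomes it was 1.87 (SE 0.51, 95% interval 0.82 to 2.92, edgeR adjusted p = 0.0153), and this call was lost without IL4 polysome replicate 2 (adjusted p = 0.0816) or replicate 3 (adjusted p = 0.0604). A noncoding gene, E230013L22Rik, overlaps the span of Rab20 in RefSeq, and with no strand setting given its reads cannot be told apart from those of Rab20.

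Rab5c, one of 3 close copies of Rab5 that drive the fusion of early endosomes, stood at 390, 368 and 229 CPM with IFNG in total mRNA, against 167, 144 and 122 CPM with IL4. On polysomes it stood at 98.9, 77.6 and 90.5 CPM with IFNG, against 55.0, 52.4 and 44.6 CPM with IL4. The groups did not overlap in either fraction. The log2 fold change of Rab5c was 1.19 in total mRNA (SE 0.38, edgeR adjusted p = 0.0453) and 0.81 on polysomes (95% interval 0.02 to 1.60, edgeR adjusted p = 0.172). The call of Rab5c in total mRNA is at the threshold: 6 of 22 alternatives kept it, with adjusted p of 0.00896 to 0.200, and leaving out IFNG total replicate 2 gave 0.200.

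The other 5 tested early endosome members were not called. Rab5b averaged 162 ± 46.3 CPM with IFNG and 161 ± 53.6 CPM with IL4 on polysomes, and 105 ± 19.2 CPM with IFNG and 77.9 ± 1.97 CPM with IL4 in total mRNA (SD, n = 3 each). The joined feature of Rab5a averaged 13.5 ± 9.28 CPM with IFNG and 9.28 ± 4.35 CPM with IL4 in total mRNA. Rab5b and the feature of Rab5a had log2 fold changes of 0.43 and 0.54 in total mRNA, and the 3 Rab5 copies were not tested against each other. Rab22a, which sorts cargo from early endosomes to the recycling route, stood at 9.51, 8.41 and 14.0 CPM with IFNG on polysomes, against 7.22, 2.83 and 1.89 CPM with IL4. Its groups did not overlap, and the log2 fold change of 1.31 missed the threshold (95% interval 0.28 to 2.34, edgeR adjusted p = 0.0835). Rab31, which works between the trans-Golgi network and endosomes, averaged 235 ± 68.0 CPM with IFNG and 240 ± 94.8 CPM with IL4 in total mRNA (log2 fold change -0.03, 95% interval -0.89 to 0.82). Rab21, which takes part in integrin endocytosis, had a log2 fold change of 0.14 in total mRNA and 0.64 on polysomes. The summed level of the 8 early endosome members was 836, 808 and 774 CPM with IFNG in total mRNA, against 448, 533 and 574 CPM with IL4. On polysomes the sum was 596, 467 and 618 CPM with IFNG, against 417, 399 and 441 CPM with IL4. These sums did not overlap between the cytokines in either fraction, and they hold the called Rab5c and Rab20. Without these 2 genes the sums overlapped in both fractions, at 458, 368 and 507 CPM with IFNG and 353, 342 and 389 CPM with IL4 on polysomes, and at 327, 335 and 499 CPM with IFNG and 245, 370 and 441 CPM with IL4 in total mRNA. The sums were not tested.

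At the late endosome and lysosome, Rab7b and Rab32 were called in total mRNA and Rab7b on polysomes. Rab7b, which is not an isoform of Rab7 but a separate gene that serves traffic from late endosomes towards the trans-Golgi network, stood at 64.7, 91.8 and 134 CPM with IFNG in total mRNA, against 19.9, 33.5 and 14.8 CPM with IL4. On polysomes it stood at 128, 191 and 192 CPM with IFNG, against 56.3, 63.7 and 26.1 CPM with IL4. The IFNG libraries were all above the IL4 libraries in both fractions. The log2 fold change of Rab7b was 2.09 in total mRNA (SE 0.45, 95% interval 1.15 to 3.03, edgeR adjusted p = 0.00286). On polysomes it was 1.80 (SE 0.45, 95% interval 0.87 to 2.73, edgeR adjusted p = 0.00887), and the call was lost without IL4 polysome replicate 3 (adjusted p = 0.065).

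Rab7, the main Rab of the late endosome and of fusion with lysosomes, averaged 164 ± 65.0 CPM with IFNG and 160 ± 33.8 CPM with IL4 in total mRNA, and 105 ± 21.1 CPM with IFNG and 101 ± 20.0 CPM with IL4 on polysomes (SD, n = 3 each). Its log2 fold changes were 0.04 in total mRNA (95% interval -0.80 to 0.87) and 0.06 on polysomes (95% interval -0.78 to 0.90), so that an almost 2-fold difference in either direction is within the intervals. The difference between Rab7b and Rab7 was not tested.

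Rab32, which acts on lysosome-related organelles and in the defence of phagosomes against bacteria, stood at 194, 295 and 384 CPM with IFNG in total mRNA, against 97.4, 60.3 and 78.9 CPM with IL4. On polysomes the levels were 322, 331 and 277 CPM with IFNG, against 182, 184 and 249 CPM with IL4. The groups did not overlap in either fraction, but on polysomes the gap was narrow. The log2 fold change was 1.88 in total mRNA (SE 0.40, 95% interval 1.05 to 2.72, edgeR adjusted p = 0.00258) and 0.60 on polysomes (95% interval -0.22 to 1.41, edgeR adjusted p = 0.352). The difference between these changes of Rab32 is the polysome association given after the polysome comparisons.

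Of the remaining late endosomal members none was called. Rab12, which directs cargo from recycling endosomes to lysosomes, stood at 22.9, 22.3 and 24.0 CPM with IFNG on polysomes, against 10.6, 12.7 and 6.43 CPM with IL4, with no overlap and a log2 fold change of 1.21 (edgeR adjusted p = 0.0675). Rab39, linked to phagosome maturation and autophagy, had 98 counts with IFNG and 46 counts with IL4 over the total libraries, and its log2 fold changes of 1.45 in total mRNA and 2.05 on polysomes had 95% intervals that reached below 0. Rab29, which recruits the kinase Lrrk2 to membranes, averaged 75.4 ± 12.1 CPM with IFNG and 61.4 ± 8.35 CPM with IL4 in total mRNA (log2 fold change 0.30). Rab9, which returns mannose 6-phosphate receptors to the Golgi, Rab24, linked to autophagy, and Rab34, which positions lysosomes, had log2 fold changes of 0.32, -0.26 and -0.06 in total mRNA. The summed level of the 12 late endosomal members was 605, 584 and 843 CPM with IFNG in total mRNA, against 350, 403 and 352 CPM with IL4. On polysomes it was 645, 665 and 674 CPM with IFNG, against 406, 422 and 417 CPM with IL4. These sums did not overlap between the cytokines, and they hold the called Rab32 and Rab7b. Without these 2 genes they overlapped in both fractions, at 195, 143 and 205 CPM with IFNG and 168, 174 and 142 CPM with IL4 on polysomes, and at 346, 197 and 325 CPM with IFNG and 232, 309 and 258 CPM with IL4 in total mRNA. The summed levels of the other routes overlapped between the cytokines in both fractions. The recycling sum, for example, was 833, 480 and 364 CPM with IFNG and 808, 773 and 465 CPM with IL4 on polysomes, and that of regulated secretion was 68.9, 41.4 and 57.3 CPM with IFNG and 63.8, 88.5 and 77.2 CPM with IL4.

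**Figure D2:**
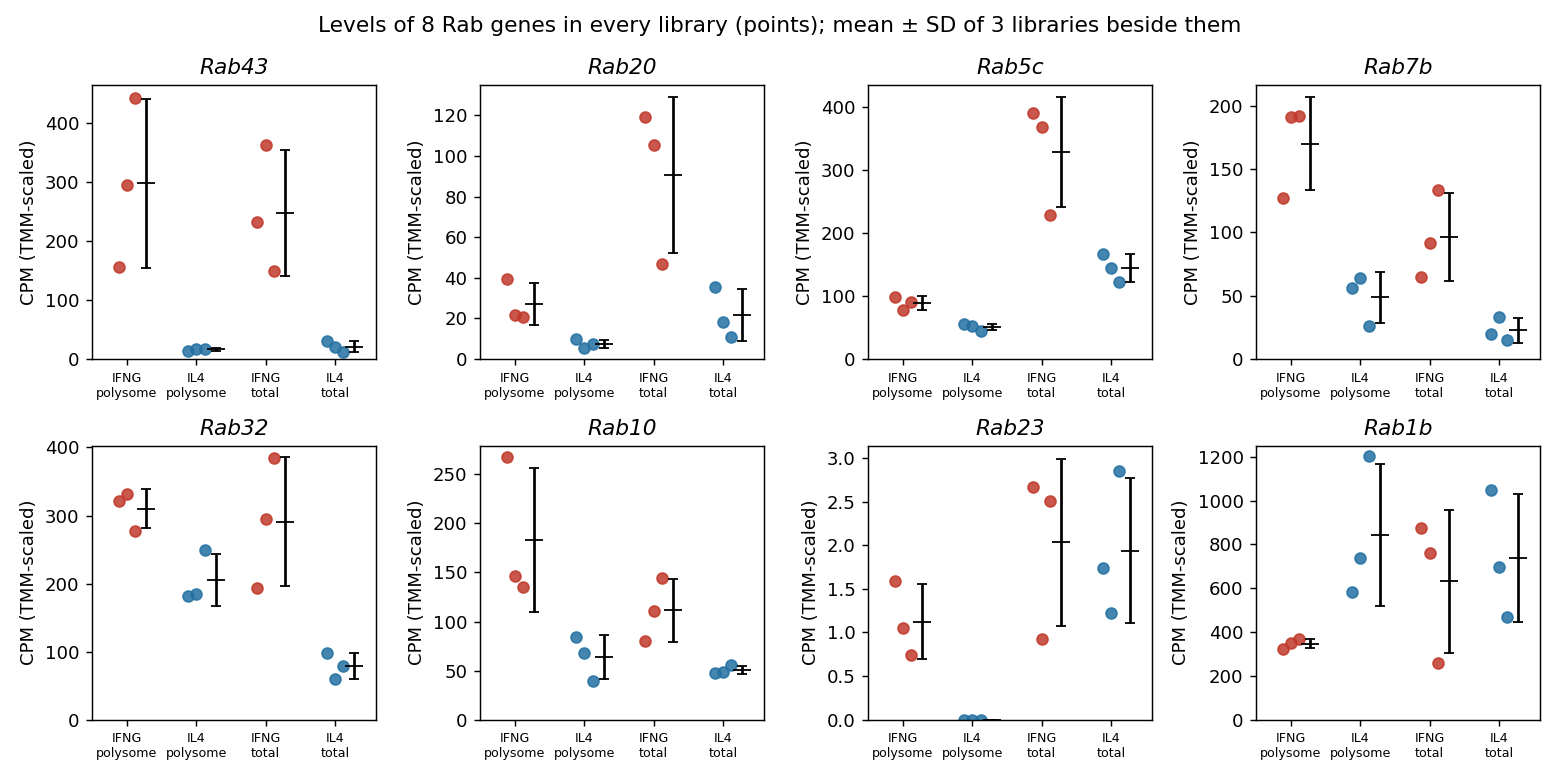
CPM on TMM-scaled libraries (vertical axis, from 0, its own range in each panel) of 8 Rab genes in every library (points, 3 per group), with the mean ± SD beside them, for IFNG (red) and IL4 (blue) on polysomes and in total mRNA. Rab43, Rab20, Rab7b, Rab32, Rab5c and Rab10 have no overlap of IFNG with IL4 in either fraction, Rab23 is at 0 in the 3 IL4 polysome libraries, and the 3 IFNG polysome libraries of Rab1b lie below the 3 IL4 ones.

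None of the 8 tested recycling endosome members was called in either fraction, where 11% of all features were called in total mRNA and 14.1% on polysomes. With so few members this count does not set the route apart. The median log2 fold change of the route was -0.36 in total mRNA and -0.23 on polysomes. In the same order it was 0.54 and 0.77 at the early endosome, and 0.32 and 0.60 at the late endosome and lysosome. It was 0.34 and 0.43 for the ER, the Golgi and constitutive secretion, -0.23 and 0.13 for regulated secretion, and -0.20 and 0.71 outside these routes. The routes were not tested against each other. Rab11a, which marks the perinuclear recycling compartment, stood at 159, 82.4 and 99.7 CPM with IFNG on polysomes, against 233, 236 and 158 CPM with IL4. One pair of libraries overlapped, at 159 and 158 CPM, and the log2 fold change was -0.88 (95% interval -1.79 to 0.04, edgeR adjusted p = 0.206). Its copy Rab11b averaged 99.8 ± 27.7 CPM with IFNG and 90.7 ± 3.49 CPM with IL4 on polysomes, with a log2 fold change of 0.14 (95% interval -0.71 to 0.98). Rab14, which links the Golgi, endosomes and phagosomes, stood at 515, 288 and 86.8 CPM with IFNG on polysomes, against 438, 379 and 160 CPM with IL4. In both groups replicate 1 was the highest and replicate 3 the lowest, and the log2 fold change was -0.13 (95% interval -1.24 to 0.98). Rab4a, which returns cargo quickly from early endosomes, stood at 5.64, 3.61 and 5.01 CPM with IFNG in total mRNA, against 10.7, 14.3 and 6.77 CPM with IL4. These groups did not overlap, and the log2 fold change of -1.15 was not called (95% interval -2.48 to 0.18, edgeR adjusted p = 0.331). Rab4b, Rab35, Rab13 and Rab15 had log2 fold changes of 0.19, -0.31, -1.01 and -0.99 in total mRNA.

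Along the ER, the Golgi and constitutive secretion, Rab43 was the member with the largest fold change of those with counts in all groups, and Rab10 was called on polysomes. Rab43, which serves the ER and Golgi and, in mouse dendritic cells, the cross-presentation of antigen, stood at 232, 363 and 150 CPM with IFNG in total mRNA, against 30.7, 19.7 and 12.1 CPM with IL4. On polysomes it stood at 156, 295 and 444 CPM with IFNG, against 14.2, 17.4 and 17.02 CPM with IL4. The lowest IFNG library was far above the highest IL4 library in both fractions. The log2 fold change was 3.57 in total mRNA (SE 0.50, 95% interval 2.53 to 4.62, edgeR adjusted p = 2.84e-05) and 4.21 on polysomes (SE 0.53, 95% interval 3.12 to 5.30, edgeR adjusted p = 6.82e-06). Both calls were kept in all 22 alternatives, with log2 fold changes of 3.14 to 3.96 in total mRNA and 3.88 to 4.52 on polysomes. RefSeq has no other gene across the span of Rab43.

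Rab10, which brings secretory vesicles and the receptor TLR4 to the plasma membrane, stood at 268, 147 and 136 CPM with IFNG on polysomes, against 84.2, 68.0 and 39.7 CPM with IL4. In total mRNA it stood at 79.8, 111 and 144 CPM with IFNG, against 47.7, 48.2 and 55.3 CPM with IL4. The groups did not overlap in either fraction. The log2 fold change of Rab10 was 1.52 on polysomes (SE 0.42, 95% interval 0.65 to 2.39, edgeR adjusted p = 0.0174), and 1.14 in total mRNA (95% interval 0.29 to 2.00, edgeR adjusted p = 0.0839). The call on polysomes was lost without IFNG polysome replicate 1 (adjusted p = 0.0685), IL4 polysome replicate 2 (adjusted p = 0.062) or IL4 polysome replicate 3 (adjusted p = 0.106). An antisense gene, Rab10os, overlaps Rab10, and reads of the pair cannot be told apart.

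The Rab1 copies, which govern traffic from the ER to the Golgi, were not called. Rab1b stood at 324, 350 and 367 CPM with IFNG on polysomes, against 582, 740 and 1203 CPM with IL4. The groups did not overlap, and the log2 fold change of -1.28 missed the threshold (95% interval -2.25 to -0.30, edgeR adjusted p = 0.0746). With the replicate number as a block, Rab1b was called lower on polysomes, with a log2 fold change of -1.32 (edgeR adjusted p = 0.0478), as it was with DESeq2 (adjusted p = 0.0449) and on library totals without TMM (adjusted p = 0.0428). In total mRNA Rab1b averaged 631 ± 327 CPM with IFNG and 738 ± 294 CPM with IL4, and IFNG replicate 3 was below all other libraries. Rab1a averaged 189 ± 42.1 CPM with IFNG and 221 ± 16.8 CPM with IL4 on polysomes (log2 fold change -0.23, 95% interval -1.15 to 0.70). Rab8a, an exocytic Rab, averaged 136 ± 25.8 CPM with IFNG and 138 ± 17.6 CPM with IL4 on polysomes, with a log2 fold change of -0.02 (95% interval -0.80 to 0.76), and Rab8b had 0.02. The intra-Golgi Rab6a had 0.26 on polysomes and 0.68 in total mRNA, the joined feature of Rab2b 0.68 on polysomes and 0.64 in total mRNA, and Rab2a -0.30 on polysomes and 0.37 in total mRNA, none of them called. Rab33b, a Golgi Rab that binds the autophagy factor Atg16l1, had 1.20 on polysomes, and Rab18, found on the ER and lipid droplets, had 0.59. Rab19 stood at 0.698, 0.582 and 1.64 CPM with IFNG in total mRNA, against 2.54, 2.94 and 4.62 CPM with IL4, without overlap and with a log2 fold change of -1.77 that was not called (edgeR adjusted p = 0.213).

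Of the regulated secretion members 4 were tested and none was called, where 11% of all features were called in total mRNA and 14.1% on polysomes. The joined feature of Rab3a, the Rab of synaptic and secretory vesicles, averaged 37.1 ± 11.6 CPM with IFNG and 50.6 ± 11.3 CPM with IL4 on polysomes, and its reads may belong to Mpv17l2. Rab3d, found on secretory granules, stood at 15.2, 8.83 and 22.2 CPM with IFNG on polysomes, against 22.8, 23.4 and 25.7 CPM with IL4, without overlap (log2 fold change -0.65, edgeR adjusted p = 0.445). Rab27a, which docks secretory lysosomes, and Rab37 averaged at most 1.45 CPM in every group, with log2 fold changes of 0.69 and 1.80 on polysomes.

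Among the 4 tested members outside these routes, Rab23 was called on polysomes. Rab23, known as an inhibitor of Hedgehog signalling, had 18, 5 and 2 counts with IFNG on polysomes, against 0, 0 and 0 with IL4. Set against 3 counts over the pooled IL4 polysome libraries, the pooled level was 5.67-fold higher with IFNG. This value does not hold the spread between libraries, and most of the IFNG counts came from replicate 1. The fitted difference had an edgeR adjusted p = 0.0187. The call was lost without IL4 polysome replicate 1 (adjusted p = 0.0759) or replicate 2 (adjusted p = 0.0511). In total mRNA the levels of Rab23 were 2.66, 0.93 and 2.50 CPM with IFNG, against 1.74, 1.23 and 2.85 CPM with IL4, and the groups overlapped (log2 fold change 0.08). Rab40c, a Rab with a SOCS box that binds a ubiquitin ligase, averaged 9.15 ± 1.19 CPM with IFNG and 10.3 ± 3.91 CPM with IL4 on polysomes. Rab42 stood at 2.55, 3.15 and 0.739 CPM with IFNG on polysomes, against 5.31, 7.79 and 7.56 CPM with IL4, without overlap (log2 fold change -1.60, edgeR adjusted p = 0.153).

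Polysome-associated against total mRNA compares, within each cytokine, the share of a message among those with more than 3 ribosomes with its share in the cell. Libraries are scaled by TMM, so the values are relative to the other messages of the same library and give no absolute amounts. With IFNG 0 members were called higher and 6 lower on polysomes, where 8.93% of all features were called higher, 17% lower and 25.9% in either direction. On library totals without TMM all features split into 1055 higher and 775 lower with IFNG, against 931 higher and 1769 lower with TMM. With IL4 1 was called higher and 10 lower, where 13.2% of all features were called higher, 15.9% lower and 29.1% in either direction. On library totals without TMM all features split into 1146 higher and 1007 lower with IL4, against 1375 higher and 1662 lower with TMM, and the Rab calls were 2 higher and 6 lower. The 6 members lower with IFNG, Rab20, Rab5c, Rab34, Rab4b, Rab3a and Rab28, were all lower with IL4 too, where they made up 60.0% of the list. The median log2 fold change of the tested members was -0.37 with IFNG, beside 0.00 over all features, and -0.66 with IL4, beside 0.06 over all features. With IFNG 27 and with IL4 31 of the 44 tested members had a value below 0. Polysome and total libraries did not overlap for 11 members with IFNG and for 24 with IL4, where the share over all features was 36.2% and 49.1%. The Lars2 shares and depths given earlier also differed between these groups, and their part in these values was not tested. Without Lars2, 0 Rab genes were called higher and 6 lower with IFNG, and 1 higher and 12 lower with IL4. All features then split into 773 higher and 1926 lower with IFNG, and 956 higher and 2028 lower with IL4.

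**Figure D3:**
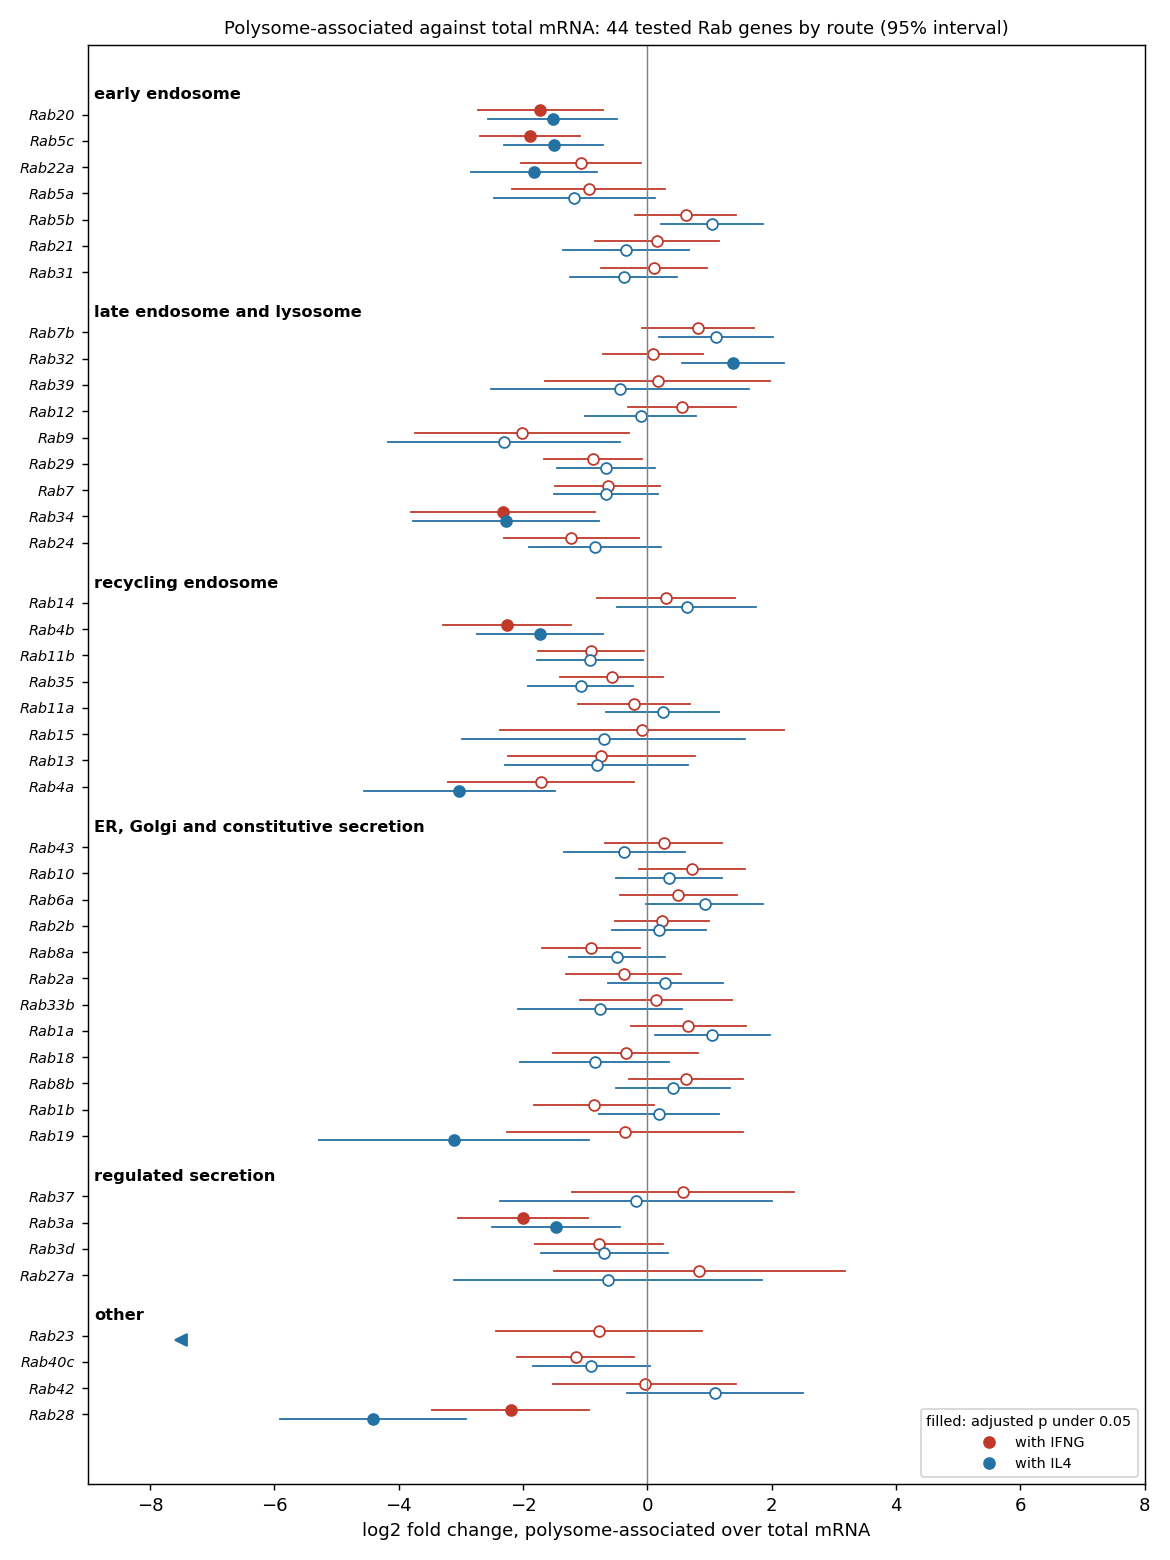
Log2 fold change of polysome-associated over total mRNA (horizontal axis) for the 44 tested Rab genes by route, with IFNG (red) and IL4 (blue), with 95% intervals and filled points where the edgeR adjusted p was under 0.05. All filled points but Rab32 with IL4 lie left of 0, and the arrow marks Rab23 with IL4, which had 0 polysome counts and whose fitted value is not drawn to scale.

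Early endosome members had median values of -0.94 with IFNG and -1.17 with IL4. Late endosomal members had -0.64 with IFNG and -0.66 with IL4, and recycling members had -0.66 and -0.87. Regulated secretion had -0.10 with IFNG and -0.66 with IL4, and members outside these routes had -0.97 and -2.66. For Rab5c the polysome levels of 98.9, 77.6 and 90.5 CPM with IFNG stood against 390, 368 and 229 CPM in total mRNA, a log2 fold change of -1.88 (SE 0.39, edgeR adjusted p = 0.00194). With IL4 they were 55.0, 52.4 and 44.6 CPM on polysomes, against 167, 144 and 122 CPM in total mRNA, a log2 fold change of -1.51 (SE 0.38, edgeR adjusted p = 0.00774). No libraries overlapped, and both calls were kept in all 23 alternatives. Rab20 was lower too, with a log2 fold change of -1.72 with IFNG (edgeR adjusted p = 0.0129) and -1.52 with IL4 (edgeR adjusted p = 0.0269). The first call was lost without IFNG total replicate 1, IFNG polysome replicate 2 or IFNG polysome replicate 3 (adjusted p = 0.0713, 0.0659 and 0.0542). The second was lost in 4 such omissions, and the omission of IL4 total replicate 1 took it to -0.97 (adjusted p = 0.189). Rab22a was called lower with IL4, at 7.22, 2.83 and 1.89 CPM on polysomes against 13.0, 17.7 and 14.4 CPM in total mRNA (log2 fold change -1.82, edgeR adjusted p = 0.0102). With IFNG the log2 fold change was -1.07 (edgeR adjusted p = 0.0943), and the difference between the cytokines was 0.76 (95% interval -0.63 to 2.14). The copy Rab5b had values above 0. It stood at 107, 162 and 214 CPM with IL4 on polysomes, against 79.9, 75.9 and 77.9 CPM in total mRNA, without overlap, and its log2 fold change of 1.04 fell just short of a call (95% interval 0.23 to 1.86, edgeR adjusted p = 0.05003). The span of Rab5b overlaps that of Pmel in RefSeq.

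Among late endosomal members Rab32 with IL4 was the 1 Rab message called higher on polysomes in the model without a replicate block. It stood at 182, 184 and 249 CPM on polysomes, against 97.4, 60.3 and 78.9 CPM in total mRNA, without overlap (log2 fold change 1.38, SE 0.40, 95% interval 0.55 to 2.20, edgeR adjusted p = 0.0144). The call was lost without IL4 total replicate 2 (adjusted p = 0.0858) or IL4 polysome replicate 3 (adjusted p = 0.0563). With IFNG the levels of Rab32 overlapped, at 322, 331 and 277 CPM on polysomes against 194, 295 and 384 CPM in total mRNA (log2 fold change 0.09, 95% interval -0.72 to 0.90). Rab34 was lower on polysomes, at 5.90, 1.05 and 0.739 CPM with IFNG, against 25.1, 12.6 and 5.35 CPM in total mRNA. The polysome library of replicate 1 overlapped the total library of replicate 3, and the log2 fold change was -2.32 (SE 0.71, edgeR adjusted p = 0.0205). With IL4 its log2 fold change was -2.28 (edgeR adjusted p = 0.0231). Rab34 was lost as a call without IFNG total replicate 1, IFNG polysome replicate 2 or IFNG polysome replicate 3 (adjusted p of 0.151, 0.0976 and 0.0689), and with IL4 in 4 of the 6 omissions of a compared library. Rab7b had 0.81 with IFNG and 1.10 with IL4, and Rab7 had -0.64 with IFNG and -0.66 with IL4, none of them called.

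At the recycling endosome Rab4b was lower on polysomes with both cytokines. It stood at 50.5, 15.8 and 26.6 CPM with IFNG on polysomes, against 231, 143 and 70.8 CPM in total mRNA (log2 fold change -2.25, SE 0.50, edgeR adjusted p = 0.00302). With IL4 it stood at 28.7, 45.0 and 44.3 CPM on polysomes, against 174, 128 and 87.6 CPM in total mRNA (log2 fold change -1.73, SE 0.49, edgeR adjusted p = 0.0132). No libraries overlapped in either case, and the call with IL4 was lost without IL4 total replicate 1 (adjusted p = 0.0597) or IL4 polysome replicate 1 (adjusted p = 0.0625). Its copy Rab4a was called with IL4, at 2.04, 1.42 and 0 CPM on polysomes against 10.7, 14.3 and 6.77 CPM in total mRNA (log2 fold change -3.03, SE 0.74, edgeR adjusted p = 0.00648). With IFNG the log2 fold change of Rab4a was -1.71 and was not called (edgeR adjusted p = 0.0821). Rab35, a Rab of fast recycling to the surface, stood at 12.7, 13.8 and 11.7 CPM with IL4 on polysomes, against 24.3, 28.2 and 27.96 CPM in total mRNA, without overlap and just short of a call (log2 fold change -1.07, edgeR adjusted p = 0.0505). Rab14 and Rab11a had 0.30 and -0.21 with IFNG, and 0.63 and 0.25 with IL4.

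Members of the ER, the Golgi and constitutive secretion had a median log2 fold change of 0.19 with IFNG and 0.19 with IL4, and the difference between routes was not tested. Rab43 had 0.26 with IFNG (95% interval -0.68 to 1.21) and -0.37 with IL4 (95% interval -1.34 to 0.60). Rab1a stood at 202, 229 and 233 CPM with IL4 on polysomes, against 76.8, 85.6 and 159 CPM in total mRNA, without overlap and without a call (log2 fold change 1.05, edgeR adjusted p = 0.0808). Rab8a had -0.90 with IFNG and -0.49 with IL4, and in both the polysome libraries were below all total libraries. Rab19 was called lower with IL4, with 0, 3 and 1 counts on polysomes against 35, 48 and 73 counts in total mRNA (log2 fold change -3.11, SE 1.05, edgeR adjusted p = 0.0306), a call lost in 5 of the 6 omissions of a compared library, with adjusted p up to 0.132.

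In regulated secretion the joined feature of Rab3a was lower on polysomes with both cytokines, at 50.4, 28.8 and 32.1 CPM with IFNG against 232, 171 and 43.96 CPM in total mRNA (log2 fold change -2.001, SE 0.51, edgeR adjusted p = 0.00702). These IFNG groups overlapped, with polysome replicate 1 above total replicate 3. With IL4 the log2 fold change was -1.46 (edgeR adjusted p = 0.0318). The first call was lost without IFNG total replicate 1 (adjusted p = 0.0615), and the second in 5 of the 6 omissions of a compared library. Among the remaining members, Rab28, linked to cilia and to photoreceptors, stood at 3.17, 0.841 and 1.48 CPM with IFNG on polysomes, against 7.61, 5.35 and 14.1 CPM in total mRNA (log2 fold change -2.20, SE 0.61, edgeR adjusted p = 0.0118). This call was lost without IFNG polysome replicate 2 (adjusted p = 0.0685). With IL4 Rab28 had 7, 1 and 1 counts on polysomes, against 168, 144 and 334 counts in total mRNA, in libraries of unequal depth (log2 fold change -4.41, SE 0.72, edgeR adjusted p = 0.000413). No libraries of Rab28 overlapped with either cytokine. Rab23 with IL4 had 0 counts on polysomes and 89 in total mRNA (edgeR adjusted p = 0.00547). With 3 counts set for the pooled polysome libraries, the pooled level was 8.28-fold lower there, a value that does not hold the spread between libraries.

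The polysome association, the polysome over total change with IFNG minus the same change with IL4, was called by edgeR for 0 Rab genes and for 0 of the 10421 features. DESeq2 and limma-voom also called 0 Rab genes. At an unadjusted p under 0.05 edgeR had 62 features higher and 114 lower, and 3 Rab genes. Rab32 had a difference of -1.29 (SE 0.55, 95% interval -2.44 to -0.14, edgeR adjusted p = 1), Rab28 had 2.22 (SE 0.93, 95% interval 0.29 to 4.14), and Rab23 is the gene with 0 counts in IL4 polysome libraries. For Rab43 the difference was 0.63 (95% interval -0.72 to 1.99), for Rab20 -0.20 (95% interval -1.62 to 1.23) and for Rab7b -0.29 (95% interval -1.57 to 0.99). These intervals leave room for differences of more than 2-fold. That a gene was called in 1 fraction or with 1 cytokine is therefore not shown to be a difference between fractions or cytokines.

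The proteins that load, switch off and read Rab GTPases were followed in lists of 15 genes of the membrane cycle and prenylation, 51 exchange factors, 39 GTPase-activating proteins and 90 effectors of the 4 routes. IFNG against IL4 called 0 of the 15 cycle genes in either fraction, with Gdi2, a GDP dissociation inhibitor, at 98.0 CPM with IFNG and 114 CPM with IL4 on polysomes on average. Of 47 tested exchange factors 0 were higher and 1 lower in total mRNA, and 0 higher and 3 lower on polysomes, where 11% of all features were called in total mRNA and 14.1% on polysomes. Rab3il1, an exchange factor for Rab3a, stood at 132, 56.9 and 29.1 CPM with IFNG in total mRNA, against 310, 305 and 172 CPM with IL4, a log2 fold change of -1.85 (SE 0.48, edgeR adjusted p = 0.0117). The groups did not overlap, and on polysomes its log2 fold change was -1.64 (edgeR adjusted p = 0.0254). Trappc1 and Trappc5, subunits of the TRAPP complexes that act on Rab1, were lower on polysomes with log2 fold changes of -1.50 and -1.62 (edgeR adjusted p = 0.0457 and 0.0186), and Trappc1 was lost in 13 of 22 alternatives.

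Of 38 tested GTPase-activating proteins 2 were higher and 4 lower with IFNG in total mRNA, where 7.08% of all features were called higher and 3.93% lower. On polysomes 2 were higher and 1 lower, where 7.54% of all features were called higher and 6.58% lower. Usp6nl, which acts on Rab5, stood at 11.8, 16.4 and 9.60 CPM with IFNG on polysomes, against 2.45, 1.06 and 2.27 CPM with IL4, a log2 fold change of 2.66 (SE 0.60, edgeR adjusted p = 0.00387). Tbc1d9 stood at 49.2, 82.4 and 107 CPM with IFNG on polysomes, against 20.8, 18.1 and 12.9 CPM with IL4 (log2 fold change 2.19, edgeR adjusted p = 0.0012). Tbc1d2, which acts on Rab7, was lower, at 1.15, 3.15 and 1.48 CPM with IFNG on polysomes against 14.4, 9.21 and 15.5 CPM with IL4, a log2 fold change of -2.78 (SE 0.59, edgeR adjusted p = 0.00226). All 3 had no overlap and changed in the same direction in total mRNA, by 1.93, 1.47 and -2.03. Tbc1d16, which acts on Rab4, Sgsm2, which acts on Rab32 and Rab38, and Tbc1d4, which acts on Rab10, were lower with IFNG in total mRNA, with log2 fold changes of -2.15, -1.91 and -1.67 (edgeR adjusted p = 0.00648, 0.0247 and 0.0299).

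Among effectors, Lrrk2, a kinase that phosphorylates several Rab GTPases, stood at 15.4, 24.6 and 31.8 CPM with IFNG on polysomes, against 5.72, 7.79 and 4.92 CPM with IL4, a log2 fold change of 1.95 (SE 0.50, edgeR adjusted p = 0.0109). In total mRNA its log2 fold change was 2.47 (edgeR adjusted p = 0.00197), the 1 gene called of 24 tested late endosomal effectors. Ehd1, which forms recycling tubules, was higher with IFNG in both fractions, with a log2 fold change of 1.70 on polysomes and 1.93 in total mRNA (edgeR adjusted p = 0.0305 and 0.0159). Rab11fip5, a Rab11 effector, stood at 23.6, 32.0 and 13.6 CPM with IFNG in total mRNA, against 55.7, 59.3 and 54.7 CPM with IL4 (log2 fold change -1.30, edgeR adjusted p = 0.0358). Golgb1, the golgin giantin, and Unc13d, a Rab27 effector of granule release, were higher in total mRNA, with log2 fold changes of 1.55 and 1.45 (edgeR adjusted p = 0.0233 and 0.0392). None of 16 tested early endosome effectors was called in either fraction. Of all 73 tested effectors 4 were higher and 1 lower with IFNG in total mRNA, and 2 higher and 0 lower on polysomes. Over all features 11% were called in total mRNA and 14.1% on polysomes, so effectors were not called more often than other genes. Of the 20 calls of regulators and effectors between the cytokines 5 were kept in all alternatives that tested them, and these were Tbc1d16 and Lrrk2 in total mRNA and Usp6nl, Tbc1d2 and Tbc1d9 on polysomes. Rab3il1 and Trappc1 on polysomes were lost in 5 of the 6 omissions of a compared library. So were Sgsm2, Usp6nl and Rab11fip5 in total mRNA. Tbc1d4, Tbc1d9, Ehd1, Golgb1 and Unc13d in total mRNA were lost in 4, and Trappc5 and Ehd1 on polysomes in 3. Rab3il1 and Tbc1d2 in total mRNA and Lrrk2 on polysomes were lost in 1.

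**Figure D4:**
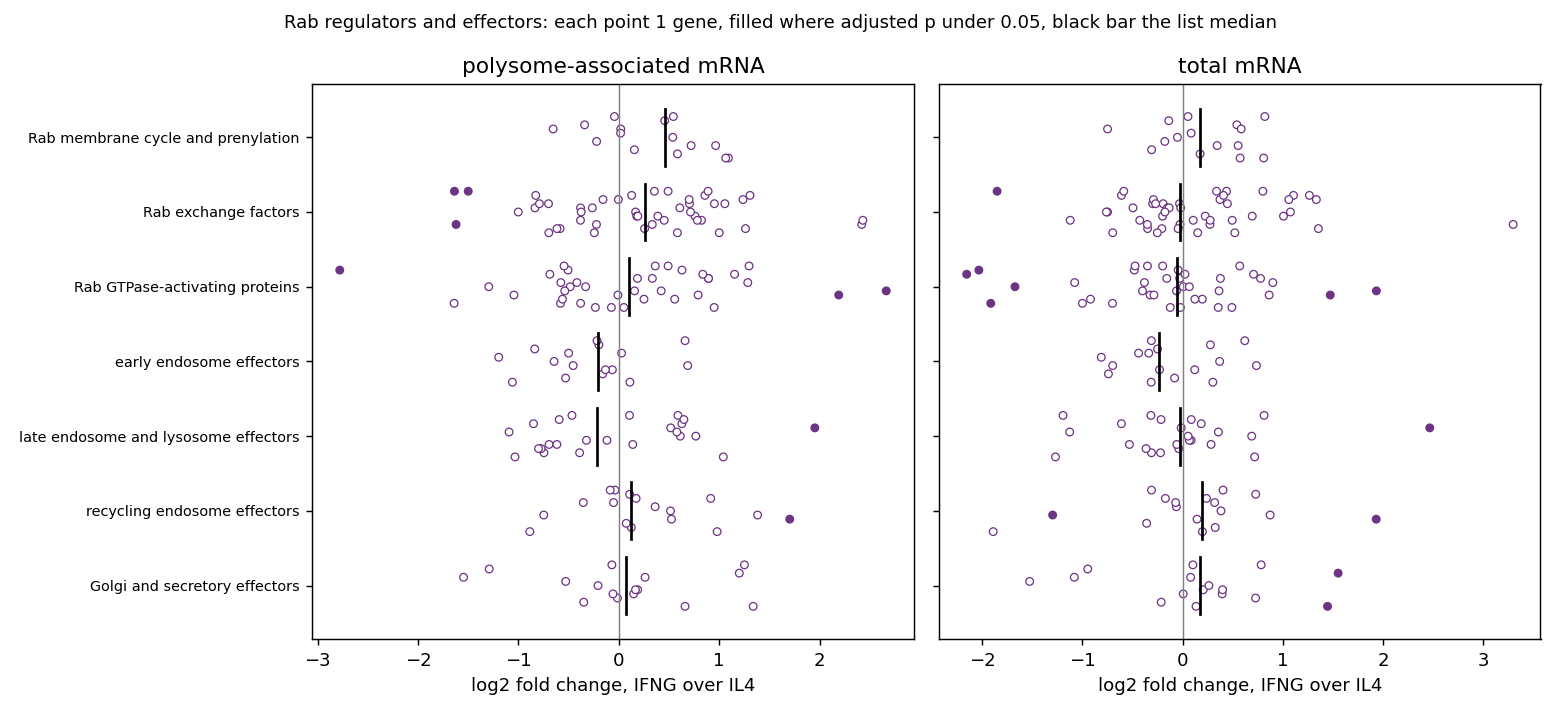
Log2 fold change of IFNG over IL4 (horizontal axis) for the tested Rab regulators and effectors by list (rows), on polysomes (left) and in total mRNA (right), 1 point per gene, filled where the edgeR adjusted p was under 0.05, with a black bar at the list median. Medians lie near 0, from -0.22 to 0.46 on polysomes and from -0.24 to 0.20 in total mRNA, and the filled GTPase-activating proteins lie on both sides of 0 in both fractions.

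In the polysome comparison the 4 effector lists had medians above 0, from 0.14 to 0.94 with IFNG and from 0.16 to 0.82 with IL4, beside medians over all features of 0.00 with IFNG and 0.06 with IL4. Of the 73 tested effectors 14 were called higher and 3 lower with IFNG, where 8.93% of all features were called higher and 17% lower. With IL4 20 effectors were called higher and 3 lower, where 13.2% of all features were called higher and 15.9% lower. Of the 47 tested exchange factors 8 were called higher and 7 lower with IFNG, and 8 higher and 10 lower with IL4. Among them the TRAPP subunits Trappc1, Trappc2l, Trappc3, Trappc4 and Trappc6a were lower on polysomes with both cytokines, for example Trappc2l with log2 fold changes of -3.19 with IFNG and -2.62 with IL4 (edgeR adjusted p = 0.000562 and 0.00226). Another subunit, Trappc8, was higher, with 1.94 with IFNG and 1.59 with IL4 (edgeR adjusted p = 0.00433 and 0.0128). Gapvd1, an exchange factor of Rab5, was higher with 1.64 and 2.02 (edgeR adjusted p = 0.00685 and 0.00253), and Pik3c3 and Pik3r4, the lipid kinase complex that Rab5 recruits, were higher with 1.56 and 1.33 with IFNG and 2.15 and 1.78 with IL4. Rabac1, a prenylated Rab acceptor, was lower with -2.26 with IFNG and -1.38 with IL4 (edgeR adjusted p = 0.00394 and 0.0451), and Rabepk, a Rab9 effector, was lower with -2.51 and -1.77 (edgeR adjusted p = 0.00111 and 0.00862). Transcript lengths were not used here, and their part in these values was not tested.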

How the data were processed

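The authors deposited 1 table per library, 12 in all, with raw counts of reads for each gene symbol, which are whole numbers that were not scaled, per the file headers. The same tables hold log2 values scaled by the authors with TMM, per the file headers, and no test used them. The submitters' processing notes list HISAT2, HISAT, limma and the build mm10 but no versions. Which counter was used, and with which strand setting, is not given in the sources used here.

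Counts were fitted in R 4.3.3 with edgeR 4.0.16. filterByExpr over the 4 groups kept 10421 of 19549 features, TMM scaled the libraries, and 1 robust quasi-likelihood model of 4 groups was fitted to all 12. Adjusted p-values are Benjamini-Hochberg over the 10421 features, called under 0.05. Intervals use the standard error and degrees of freedom of that model. Total counts per library limit the precision of low members, and 3 counts stand for the floor. DESeq2 1.42.0 and limma 3.58.1 (voom) were alternatives.

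Members, routes and lists of regulators, effectors and markers were chosen with earlier results of these data known. Genes were given in full where called between the cytokines, where among the most abundant of their route, or where among the largest polysome changes, with neighbours of each route added after their values were seen. Over all features, deviations from the group means of same-numbered IFNG and IL4 libraries correlated in each of the 3 pairs. The r was 0.22, 0.11 and 0.28 on polysomes and 0.40, 0.19 and 0.66 in total mRNA. The model of 4 groups held no block, so its p-values do not use this pairing. The replicate number was a block in an alternative only. No 2 replicate libraries were identical, and their log2 CPM correlated over features with r of 0.890 to 0.971. Smart-seq2 reads carry no molecular identifiers, so counting limits cover counting error only. The procedure was tested on simulated data. Positions and promoter windows come from RefSeq tables of GRCm38.p6. A marker gene and a promoter motif that were examined are not reported here.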

Additional observations from a re-analysis of the deposited data

How the results depend on the processing

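Of the 27 Rab calls, 12 were kept in every alternative that tested them, and 0 changed direction. With IFNG against IL4 in total mRNA the 5 calls were 4 to 5 when libraries were left out 1 at a time. On polysomes the 5 calls were 2 to 6, and either omission of IL4 polysome replicates 2 and 3 left 2. Leaving out replicate 3 of both polysome groups, the libraries with the highest Lars2 shares, also left 2 calls on polysomes. This alternative was chosen after seeing the data. The replicate block gave 5 calls in total mRNA, and 5 higher and 1 lower on polysomes, the lower one being Rab1b, and changed no other call between the cytokines.

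For polysome against total mRNA with IFNG the 6 calls were 3 on library totals without TMM, 11 with DESeq2, and 3 to 10 when libraries were left out, with 3 for IFNG total replicate 1, 3 for IFNG polysome replicate 2 and 10 for IFNG total replicate 3. With IL4 the 11 calls were 7 under a filter at a mean of 10 CPM, 18 with only the 2 groups fitted, 6 without replicate 3 of both polysome groups, and 6 to 14 when libraries were left out, with 6 for IL4 total replicate 1, 6 for IL4 total replicate 2 and 7 for IL4 polysome replicate 3. The filter at 10 CPM removes low members such as Rab23 and Rab28 from the test. For the other settings the cause was not tested. The model of 4 groups took polysome and total libraries as unpaired, although both fractions were taken from parts of the same cells. Deviations of same-numbered polysome and total libraries had r of 0.22, 0.35 and -0.02 with IFNG, and 0.02, 0.29 and 0.08 with IL4. These correlations cannot decide if the libraries are paired, so models with a block are given beside it. A replicate block by number gave 6 and 16 calls, and one by preparation 6 and 15. With IL4 these were 4 higher and 12 lower by number, and 4 higher and 11 lower by preparation. All features then split into 1635 higher and 1915 lower by number, and 1466 higher and 1835 lower by preparation. With only the 2 groups fitted, the IL4 calls were 5 higher and 13 lower, beside 1775 higher and 2293 lower over all features. The polysome association had 0 Rab calls in all 22 alternatives.

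Without TMM the median of all features moved to -0.30 in total mRNA and to 0.31 for polysome against total mRNA with IFNG. Relative to all features, the Rab median stayed at 0.03 to 0.32 in total mRNA, 0.10 to 0.36 on polysomes, -0.62 to -0.27 for polysome against total mRNA with IFNG and -0.76 to -0.50 with IL4 in all settings. Depth limits members with few polysome reads, among them Rab23, Rab28, Rab19 and Rab34.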

Other observations

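In total mRNA, 18 of the 44 tested Rab genes (40.9%) had their highest level in replicate 3 with both cytokines and 13 (29.5%) had their lowest there with both, beside 29.0% and 28.8% of all features. Among them Rab1a stood at 207 CPM with IFNG and 159 CPM with IL4 in replicate 3, above the other two total libraries of either cytokine. The joined feature of Rab3a was the opposite, at 43.96 CPM with IFNG and 85.8 CPM with IL4 in replicate 3, below the other total libraries of either cytokine. On polysomes 13 Rab genes (29.5%) were highest in replicate 1 with both cytokines, beside 17.9% of all features, and 4 (9.09%) were highest in replicate 3, beside 13.9%. These counts describe the libraries and were not tested.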
